A study of Mus musculus with 3 samples.

Results

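The genes described here are 10 genes of MHC class I peptide loading and of the immunoproteasome, Tap1, Tap2, Tapbp, Psmb8, Psmb9, Psmb10, Psme1, Psme2, Erap1 and Nlrc5, chosen by symbol from 16072 named genes. The RNA came from bone marrow (BM) cells labelled Ly6G+ myeloid cells, which in this tissue are mainly neutrophils and their late precursors. All mice were C57BL/6, aged 6 to 10 weeks per the study's methods, and all carried a subcutaneous graft of the mouse melanoma line B16.F10, placed 1 week ahead of an adeno-associated virus (AAV) vector given into muscle. The AAV-IL-27 vector (AAV-IL27 in the labels) carries both IL-27 subunits, joined by a peptide, under the ubiquitous CAG promoter, and AAV-Ctrl (AAV-ctrl in the labels) is the empty control. Cells, called Gr-1+ in the study, were collected 3 weeks after the vector. The design text counts 4 mice but lists 2 with AAV-Ctrl and 1 with AAV-IL-27, and 3 libraries are described here, 2 AAV-Ctrl (the controls) and 1 AAV-IL-27.

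Nearly every nucleated cell shows fragments of its own proteins to CD8+ T cells on MHC class I molecules. The proteasome cuts proteins into peptides, the TAP transporter moves these into the endoplasmic reticulum, and tapasin holds empty class I molecules next to TAP until a peptide binds. Under interferon, cells replace the 3 catalytic subunits of the proteasome with those of the immunoproteasome, make more of the PA28 cap, and raise the transactivator NLRC5, which drives class I genes.

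Psmb9 and Tap1 are transcribed away from each other from starts 226 bases apart, and the sequence between the starts is shown because the 2 genes share it and stood at different distances from the controls. The promoter windows were taken from RefSeq on GRCm38.p6 (the same assembly as mm10, the build in the submitters' processing notes), and 8 of the 10 genes matched. Tap2 and Nlrc5 had no entry. The interval chr17:34187331-34187555 is printed on the plus strand, from the base after the Psmb9 start to the base before the Tap1 start, with a CCAAT box and a GC box (GGGCGG, here on the other strand) in capitals.
Psmb9-Tap1 interval: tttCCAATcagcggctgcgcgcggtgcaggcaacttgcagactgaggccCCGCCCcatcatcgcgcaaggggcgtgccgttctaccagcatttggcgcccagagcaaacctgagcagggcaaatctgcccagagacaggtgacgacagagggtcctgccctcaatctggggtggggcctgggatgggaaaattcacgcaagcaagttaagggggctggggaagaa

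The promoters of these 8 genes were also searched for the letters of interferon response elements (ISRE and GAS), on both strands, in windows from 250 bases before to 50 after each start. ISRE-type letters, GAAA followed after any 2 bases by GAAA, were in the windows of Erap1 and Psme1, 2 of 8 genes, against 3.44% of 32851 windows of all genes. The GAS letters TTCNNNGAA, which read the same on both strands, were in the window of Psmb8 alone, against 8.3% of all windows. The stretches below show these matches in capitals, all on the plus strand, at chr13:74639839-74639868 for Erap1, chr14:55578493-55578522 for Psme1 and chr17:34198045-34198144 for Psmb8.
Erap1: ccaccttcacTTTCACTTTCggtcccgggc
Psme1: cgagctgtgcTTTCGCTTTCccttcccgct
Psmb8: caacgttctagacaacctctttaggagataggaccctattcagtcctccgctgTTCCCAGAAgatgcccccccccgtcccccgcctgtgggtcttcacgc
Positions count from the start that each window is built on. For Erap1 this is base 74639853, 280 bases inside the outermost start of the gene at 74639573, and the ISRE-type letters lie across it, from base -4 to 6. For Psme2, 1 of 2 windows is likewise built on a start 80 bases inside the gene, and the other windows start where their genes do. The ISRE-type letters lie from base 10 to 19 of Psme1 and the GAS letters from base -97 to -89 of Psmb8. CCAAT boxes were found for 3 of the 8 genes (37.4% of all windows) and GC boxes for 6 (35.7%). Psmb9 and Tap1 are each counted for the same CCAAT box and the same GC box, those printed in their shared interval. Psme2 has 2 windows, so by window the counts were 2 of 9 for ISRE-type letters, 1 for GAS, 3 for CCAAT and 7 for GC boxes. These are matches of letters only.

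Expression was deposited as FPKM, fragments scaled by transcript length and by library size, so levels of different genes can be compared per length. Differences are given as log2(FPKM + 1) in AAV-IL-27 less the average of the controls, and on this log2(FPKM + 1) scale the difference of a low gene is understated. With 1 AAV-IL-27 library there is no replicate error for that group, so no p-value was computed and no difference was tested against mouse-to-mouse variation. Each value is set instead beside the distance of the controls from each other, which had a median size of 0.087 and a 95th percentile of 0.34 over the 9130 genes whose FPKM averaged at least 1. All 10 genes are among these 9130. Depth, fitted to the spacing of low values, was about 19200000 and 19400000 fragments for the controls and 19100000 for AAV-IL-27.

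The labelled cell type was checked first. Neutrophil genes dominated each library: the 11 listed markers (Ly6g, S100a8, S100a9 and others) had a summed FPKM of 175988 and 171671 in the controls and 166730 in AAV-IL-27. S100a8 and S100a9 make up most of this sum. Of the 11, 6 lay below both controls (41.9% of all genes) and 2 above both (38.9%). Ly6g was the lowest relative to the controls, at 711.76, 766.11 and 586.29 FPKM, or 79.3% of the AAV-Ctrl mean. Markers of other cells were at unequal levels. In AAV-IL-27, the summed FPKM of 11 macrophage markers was 27.8% of the AAV-Ctrl mean. For 10 erythroid markers this value was 12.1%, for 7 B cell markers 12.8% and for 6 monocyte markers 108.4%. Ly6c2 makes up most of the monocyte sum, and 5 of the 6 monocyte markers exceeded both controls. Relative to the control average, Fn1 reached 234.9%, Ccr2 173.7%, F13a1 155.7% and Ms4a6c 151.9%, while Ly6c2 reached 108.6% and Csf1r 98.5%. Apart from Ly6c2 and Csf1r, no monocyte marker exceeded 4.57 FPKM in a control. The median log2 difference of the 6 was 0.49. Of the macrophage markers 10 of 11, of the erythroid markers 10 of 10 and of the B cell markers all 4 that averaged at least 1 were at least 1 log2 unit below both controls. Of the 9130 genes, 2.32% lay that far below both controls and 38.9% lay above both. Of 8 dendritic cell markers 1 averaged at least 1 FPKM, Itgax at 17.28, 11.89 and 24.64, and the other 7 were at or below 0.79 in each library. The part of these cells in the values below was not tested, and in bulk RNA fewer cells of a type cannot be told apart from less RNA per cell.

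Of the 10 genes, 7 exceeded both controls in AAV-IL-27 and 2 lay below both, against 38.9% and 41.9% of the 9130 genes. The differences were mostly small, and Psmb8 is counted among the 7 though it exceeded the nearer control by only 0.0042. A distance of at least 0.5 above both controls was reached by Tap1 and Nlrc5 (2 of 10, against 1.57% of all genes), and a distance of at least 1 by 0 of 10 (0.307% of all genes). None of the 10 was lower by 0.5 or more than both (7.01% of all genes). The median log2 difference was 0.14 over the 10 genes, from -0.10 to 0.89, and -0.01 over all genes tested. Without AAV-Ctrl 1 the median of the 10 genes was 0.08 and without AAV-Ctrl 2 it was 0.23, and leaving out AAV-Ctrl 2 put 1 gene, Nlrc5, past 1.

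The AAV-Ctrl libraries themselves differed in these genes. All 10 were higher in AAV-Ctrl 2 than in AAV-Ctrl 1, against 50.3% of all genes, by a median of 0.14. The median difference of AAV-IL-27 was 0.23 from AAV-Ctrl 1 alone and 0.08 from AAV-Ctrl 2 alone. A step of at least 0.5 between the controls was seen for 0 of 10 (1.02% of all genes). In 7 of the 10, AAV-Ctrl 1 was lowest, AAV-Ctrl 2 in between and AAV-IL-27 highest, an order found in 16.2% of all genes. The AAV-IL-27 library stood further above the nearer control than the controls stood apart for 4 genes, Nlrc5, Tap1, Psmb9 and Tap2, against 25% of all genes. For Psme2 it stood below by more than that (28.8% of all genes).

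**Figure D1:**
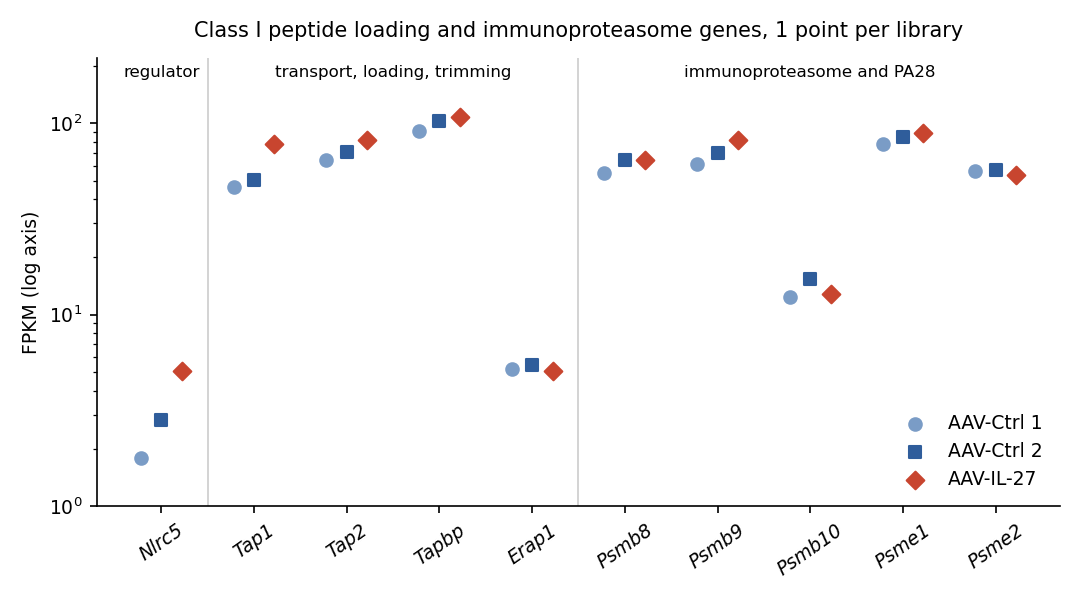
FPKM (log axis) of the 10 genes, grouped by role, with 1 point for each AAV-Ctrl library (circle and square) and for the AAV-IL-27 library (diamond). Nlrc5 (1.78, 2.83 and 5.06) and Tap1 (46.43, 50.77 and 77.59) show the widest steps to the diamond, while Psmb10 and Erap1 lie at or between the control values or just under them.

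Nlrc5 encodes the transactivator that is recruited to the promoters of class I genes, of B2m and of several genes of peptide loading. It was the lowest of the group in AAV-Ctrl, with an FPKM of 1.78 in AAV-Ctrl 1 and 2.83 in AAV-Ctrl 2 (2.31 ± 0.742, SD, n = 2), and it stood at 5.06 in AAV-IL-27. The control values did not reach the AAV-IL-27 value, which was 284.3% of the first and 178.8% of the second. The log2 difference of 0.89 was the largest of the group, and 99.4% of all genes tested had a lower one. The controls were also further apart for Nlrc5 than for any other member, by 0.46. An estimated 235, 377 and 664 fragments lie behind these levels. The 95% Poisson limits, on the FPKM scale, were 1.56 to 2.02 and 2.55 to 3.13 for the controls and 4.68 to 5.46 for AAV-IL-27, so that no 2 libraries overlap in counting error, the controls included. These intervals cover counting error only. Nlrc5 (NCBI Gene 434341) lies on chromosome 8, 94434335 to 94527272, plus strand.

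Tap1 encodes a subunit of the transporter associated with antigen processing, which pumps peptides from the cytosol into the endoplasmic reticulum. Its FPKM was 46.43 in AAV-Ctrl 1 and 50.77 in AAV-Ctrl 2 (48.6 ± 3.07, SD, n = 2), against 77.59 in AAV-IL-27. The AAV-IL-27 value stood 0.60 above the nearer control on the log2 scale, while the controls were 0.13 apart. Of the 10 genes this was the clearest separation relative to the controls among those that were higher, with a log2 difference of 0.67 that exceeded that of 98.8% of the genes tested. Tap1 (NCBI Gene 21354; chromosome 17, 34187556 to 34197225, plus strand) had an estimated 2268, 2506 and 3770 fragments.

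Tap2 encodes the partner subunit of the same transporter. FPKM was 64.58 and 70.75 in the controls and 81.59 in AAV-IL-27, with a log2 difference of 0.27 and controls 0.13 apart. Tap2 was thus above both controls, by 0.20 over the nearer one, but by less than Tap1. The ratio of Tap1 to Tap2 within a library, which no rescaling of libraries can alter, was 0.719 in AAV-Ctrl 1 and 0.718 in AAV-Ctrl 2, against 0.951 in AAV-IL-27. The controls differed by -0.0027 on the log2 scale, and AAV-IL-27 was 0.40 above the higher one, with the 2 transporter mRNAs at nearly equal levels per length. This ratio was looked at after the values had been seen. Tap2 (NCBI Gene 21355) lies on chromosome 17, 34204479 to 34216321, plus strand.

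Tapbp encodes tapasin, which bridges class I molecules to TAP. It was the most abundant of the 10 genes per length in each library, with an FPKM of 91.29 and 102.09 in AAV-Ctrl (96.7 ± 7.64, SD, n = 2) and 107.41 in AAV-IL-27. The step from AAV-Ctrl 2 to AAV-IL-27, 0.07 on the log2 scale, was smaller than that between the controls, 0.16. Tapbp (NCBI Gene 21356; chromosome 17, 33919478 to 33929290, plus strand) is therefore not separated from the spread of the controls.

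Erap1 encodes the aminopeptidase that trims peptides to length in the endoplasmic reticulum. FPKM was 5.2 and 5.49 in the controls and 5.09 in AAV-IL-27, with a log2 difference of -0.06. The AAV-IL-27 value lay 0.03 below the nearer control, less than the 0.07 between the controls, and the counting intervals of all 3 libraries overlap, at 4.78 to 5.65, 5.06 to 5.95 and 4.67 to 5.54 FPKM. Erap1 (NCBI Gene 80898; chromosome 13, 74639573 to 74693205, plus strand) showed no difference detectable at this depth.

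**Figure D2:**
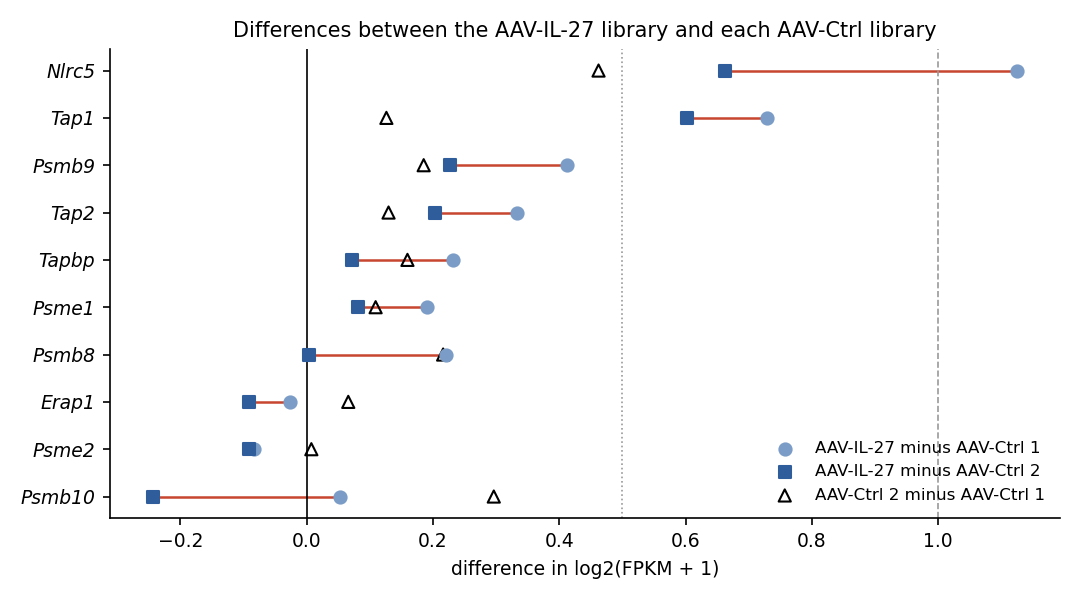
Differences in log2(FPKM + 1) for each gene: AAV-IL-27 minus AAV-Ctrl 1 (circles) and minus AAV-Ctrl 2 (squares), joined by a line, and AAV-Ctrl 2 minus AAV-Ctrl 1 (open triangles). The dotted and dashed lines mark 0.5 and 1. Nlrc5 and Tap1 are the only genes with both filled points beyond 0.5, and every open triangle lies to the right of 0.

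The 3 immunoproteasome subunits stood at different distances from the controls. Psmb9 encodes the subunit that takes the place of Psmb6, Psmb8 that of Psmb5 and Psmb10 that of Psmb7 in the catalytic rings. Psmb9 (NCBI Gene 16912; chromosome 17, 34182030 to 34187330, minus strand) had an FPKM of 61.22 and 69.75 in AAV-Ctrl (65.5 ± 6.03, SD, n = 2) and 81.81 in AAV-IL-27. It lay above both controls, by 0.23 over the nearer one with the controls 0.19 apart, with a log2 difference of 0.32.

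Psmb8 (NCBI Gene 16913; chromosome 17, 34198195 to 34201454, plus strand) had an FPKM of 55.05 in AAV-Ctrl 1 and 64.11 in AAV-Ctrl 2, against 64.3 in AAV-IL-27. AAV-Ctrl 2 and AAV-IL-27 were at the same level, and AAV-Ctrl 1 was the low library. Counting error alone gives a range from 61.3 to 67.0 for AAV-Ctrl 2 and from 61.5 to 67.2 for AAV-IL-27. Without AAV-Ctrl 1, the difference falls from 0.11 to 0.0042.

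Psmb10 (NCBI Gene 19171; chromosome 8, 105935728 to 105938392, minus strand) had an FPKM of 12.33 in AAV-Ctrl 1 and 15.37 in AAV-Ctrl 2, against 12.83 in AAV-IL-27. The AAV-IL-27 value lay between the controls, so its log2 difference of -0.10 turned to 0.05 without AAV-Ctrl 2. Per length, Psmb10 mRNA was less abundant than Psmb8 and Psmb9 mRNA in each library.

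The subunits that these replace were all lower in AAV-IL-27 than in both controls (41.9% of all genes), each by a similar amount. Psmb5 was at 34.99 and 34.3 FPKM in the controls and 31.23 in AAV-IL-27, Psmb6 at 30.69, 29.09 and 27.22, and Psmb7 at 38.11, 40.28 and 35.34. The log2 differences were -0.15, -0.13 and -0.14. Genes used by every cell, a list that includes Actb and Gapdh, had a median of -0.15 over 10 genes, so this size of difference is not particular to the replaced subunits.

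Within each library, the balance of immunoproteasome to constitutive subunits can be read as a ratio of FPKM that does not depend on library scaling. For Psmb9 to Psmb6 it was 1.99 in AAV-Ctrl 1 and 2.40 in AAV-Ctrl 2, against 3.01 in AAV-IL-27. For Psmb8 to Psmb5 it was 1.57, 1.87 and 2.06. For Psmb10 to Psmb7 it was 0.324, 0.382 and 0.363, with AAV-IL-27 between the controls. On the log2 scale, Psmb9/Psmb6 in AAV-IL-27 was 0.33 above the higher control, Psmb8/Psmb5 0.14 above it and Psmb10/Psmb7 below it by 0.07 (-0.07), while the controls differed by 0.27, 0.25 and 0.24. Psmb9/Psmb6 is thus the one pair of the 3 whose step to AAV-IL-27 exceeded the step between the controls. The immunoproteasome mRNAs Psmb8 and Psmb9 were already more abundant per length than their constitutive partners in both AAV-Ctrl libraries.

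**Figure D3:**
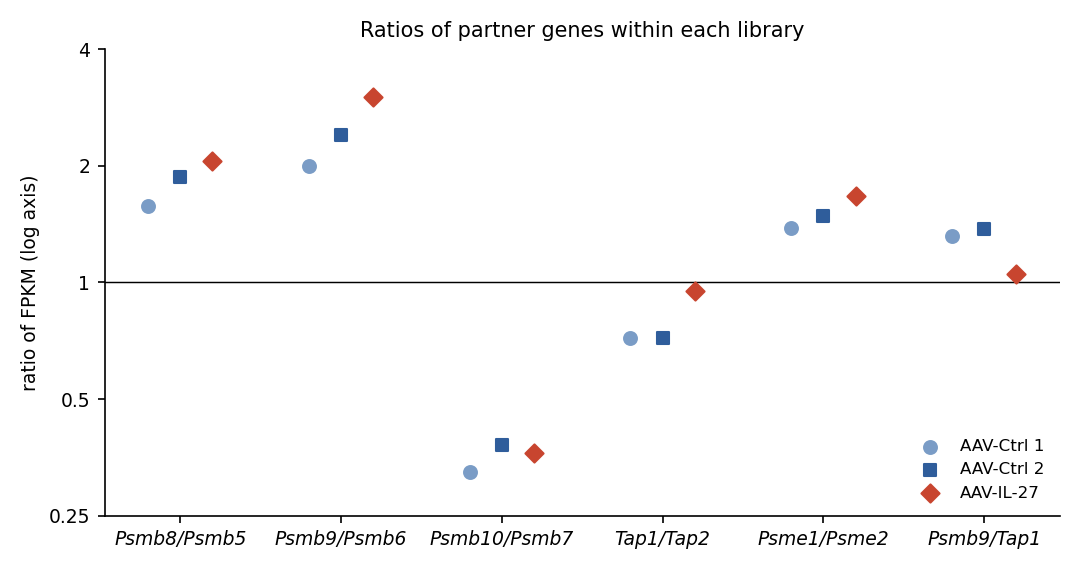
Ratios of FPKM between partner genes (log axis), 1 point per library, with AAV-Ctrl as circle and square and AAV-IL-27 as diamond. Psmb9/Psmb6 reached 3.01 in AAV-IL-27, Psmb10/Psmb7 stayed under 1 in each library, and Tap1/Tap2 was the same in both controls (0.719 and 0.718) and 0.951 in AAV-IL-27.

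Psme1 and Psme2 encode the alpha and beta subunits of PA28, a cap that opens the proteasome core and is itself induced by interferon-gamma. Psme1 (NCBI Gene 19186; chromosome 14, 55578494 to 55581527, plus strand) had an FPKM of 78.07 and 84.29 in the controls and 89.28 in AAV-IL-27, with a log2 difference of 0.14 and controls 0.11 apart. Psme2 (NCBI Gene 19188; chromosome 14, 55587440 to 55591101, minus strand) had 56.56 and 56.86 in the controls and 53.34 in AAV-IL-27, with a log2 difference of -0.09. The 2 subunits of PA28 thus lay on opposite sides of the controls, neither far from them. Psme1 stood 0.08 above the nearer control, less than the 0.11 between the controls. Its counting intervals overlap between AAV-Ctrl 2 (80.3 to 88.4 FPKM) and AAV-IL-27 (85.2 to 93.5 FPKM). The controls differed by 0.0075 for Psme2, the smallest distance of the group, but its counting intervals overlap between all 3 libraries (52.7 to 60.7, 53.0 to 60.9 and 49.6 to 57.3 FPKM). The ratio of Psme1 to Psme2 was 1.38 and 1.48 in the controls and 1.67 in AAV-IL-27. Psme2 is uncertain because its transcript is 99.4% identical over 794 bases to that of Psme2b, so the authors' counting could have split shared fragments. Psme2b was listed at 12.55, 13.58 and 12.22 FPKM, and the sum of both was 69.11, 70.44 and 65.56, at 94.0% of the AAV-Ctrl mean against 94.1% for Psme2 alone.

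All 5 of the genes on chromosome 17 lay above both controls, Psmb8 by only 0.0042 and Tapbp by 0.07 over the nearer one. So did 1 of 2 on chromosome 8 (Nlrc5) and 1 of 2 on chromosome 14 (Psme1). Erap1 on chromosome 13 did not. The share of all genes tested above both was 38.9%. Psmb9, Tap1, Psmb8 and Tap2 lie next to each other within 34.3 kb of the MHC region on chromosome 17, from 34182030 to 34216321, and their log2 differences in that order were 0.32, 0.67, 0.11 and 0.27. For the divergent pair printed above, the ratio of Psmb9 to Tap1 was 1.32 and 1.37 in the controls and 1.05 in AAV-IL-27. The log2 of this ratio was thus lower in AAV-IL-27, with a difference of -0.35, while the controls were 0.06 apart. Psmb8 had the smallest log2 difference of the 4. Tap2 had no promoter window, and a link between matched letters and expression was not tested.

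The molecules that the pathway loads were higher too. B2m, the light chain shared by all class I molecules, was at 1577.96 and 1639.94 FPKM in the controls and 2614.36 in AAV-IL-27, with a log2 difference of 0.70. The heavy chain genes H2-K1 and H2-D1 differed by 1.17 and 0.47, and near-identical class I genes make single heavy chain values uncertain. All 3 genes lay above both controls, against 38.9% of all genes tested. B2m and H2-K1 stood above both by at least 0.5, as Tap1 did (1.57% of all genes). The ratio of B2m to Tap1 was 33.99, 32.3 and 33.7, with AAV-IL-27 between the controls, and was looked at after the values had been seen. The log2 difference of H2-K1 was larger than that of Tap1 (0.67), and that of H2-D1 was smaller.

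The chaperones that work beside tapasin did not show this. Of 6 genes, 4 were lower in AAV-IL-27 than in both controls and 1 was higher, with a median of -0.12. Over all genes tested, 41.9% were lower than both and 38.9% higher. Calr (calreticulin) was at 90.08 and 97.75 FPKM in the controls and 75.79 in AAV-IL-27, with a log2 difference of -0.30, the lowest of the list. Pdia3, the thiol oxidoreductase ERp57 of the loading complex, differed by -0.11. Tapbpl, which encodes the tapasin relative TAPBPR, was highest at 0.16, with 6.52, 8.89 and 8.66 FPKM and its AAV-IL-27 value between the controls.

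The other proteasome lists had medians near or below 0. For the counts that follow, 38.9% of all genes tested were above both controls and 41.9% below both. The other 11 subunits of the 20S core had a median of 0.02, from -0.17 (Psma5) to 0.29 (Psma4), with 6 above both controls and 4 below both. The 19S particle, which recognises ubiquitin and unfolds substrates, had a median of -0.16 over 18 genes, with 12 below both controls and 4 above both, from -0.47 (Psmc5) to 0.13 (Psmd3). Other activators, the inhibitor Psmf1 and the assembly factors had a median of -0.33 over 8 genes, 7 of them below both controls, from Psmg2 at -0.59 to Pomp at 0.03. Pomp, the chaperone of proteasome assembly, was at 44.98, 47.29 and 47.05 FPKM. No gene of these 3 lists was past 0.5 in either direction against both controls (1.57% of all genes above, 7.01% below).

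Cytosolic peptidases, which destroy or trim peptides before TAP, had a median of -0.06 over 7 genes tested of 8 in the table. Lap3 (leucine aminopeptidase) was the lowest at 5.51 and 4.94 FPKM in the controls and 1.68 in AAV-IL-27, with a log2 difference of -1.21, and was the one pathway gene at least 1 below both controls (2.32% of all genes). Tpp2, the tripeptidyl peptidase, was the highest at 0.22.

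Among 12 tested genes of transcription factors that act on class I genes, 6 were above both controls and 3 below both, with a median of 0.09. The shares of all genes tested were 38.9% and 41.9%. Irf1, which binds ISRE-type elements, was at 84.16, 86.04 and 103.53, a difference of 0.28 with controls 0.03 apart. Irf8 was the lowest, at 7.49, 7.89 and 4.66 FPKM, a difference of -0.62, and was at least 0.5 below both controls (7.01% of all genes). The subunits of the RFX complex, with which NLRC5 acts at promoters, differed by 0.16 (Rfx5), 0.20 (Rfxank) and -0.05 (Rfxap). The class II transactivator Ciita, a relative of Nlrc5, did not reach a mean FPKM of 1 and was at 0.47, 0.66 and 0.28.

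**Figure D4:**
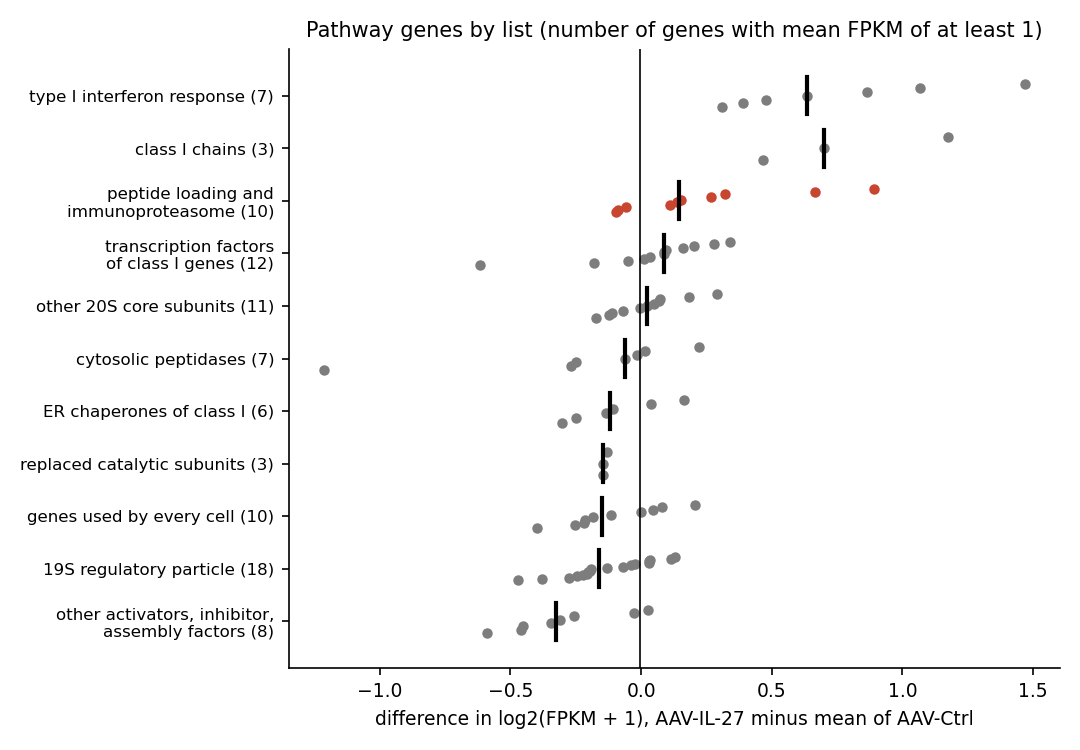
Differences in log2(FPKM + 1), AAV-IL-27 minus the mean of AAV-Ctrl, with 1 point per gene, a bar at the median of each list and a line at the median of all genes tested (-0.01). Class I chains and type I interferon response genes have the highest medians (0.70 and 0.63), the 10 loading and immunoproteasome genes spread from -0.10 to 0.89, and the 19S particle and assembly factors lie mostly below the line.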

How the data were processed

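RNA-seq of BM Ly6G+ cells was analysed for 2 AAV-Ctrl libraries and 1 AAV-IL-27 library, grouped by their labels. The table has 1 further column, and its heading labels it AAV-IL-27 replicate 1. No listed sample corresponds to it, so it was left out of every step. For these cells the study's legend gives 2 libraries per group. The authors selected mRNA with oligo-dT, marked strand with dUTP, sequenced on DNBSEQ and deposited FPKM values with 2 decimals, and the processing notes name mm10. The aligner, the counting tool and its strand setting are not given in the sources used here. Of 16073 rows, 1 without a gene symbol was left out.

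The computed values are log2(FPKM + 1) differences over genes whose FPKM averaged at least 1. A call is a distance of at least 1, or at the lower fold 0.5, from both AAV-Ctrl libraries, beside the same share of all genes. No test was run. All 10 members are named, and other genes where they pass a fold or are the lowest or highest of their list, except an item that is not reported here. The members and lists were chosen with earlier results of these data known, and the ratios other than those of the catalytic pairs, B2m, H2-K1, H2-D1 and Psme2b, and genes named for their role, after values were seen. Alternatives were pseudocounts of 0.1 and 0.01, other filters and folds, 2 rescalings and leaving out each AAV-Ctrl library. Depth was fitted on 265, 248 and 241 low values of 10934 genes with a single transcript in GENCODE M21, with 70 nt taken off each length. Of these values, 72.5%, 77.0% and 72.2% came within 0.15 of whole fragments, so fragment numbers are estimates, made with the shortest listed transcript, and no count test was run. The calls and the depth fit were tested on simulated data. BLAST 2.17.0 and Python 3.11.15 with matplotlib 3.10.9, scipy 1.17.1, pandas 2.3.3 and numpy 2.4.6 were used.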

Additional observations from a re-analysis of the deposited data

How the results depend on the processing

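All statements rest on 1 AAV-IL-27 library. The number of members at least 0.5 above both controls was 2 under each pseudocount, rescaling and left-out control. The log2 difference of Psme2 became -0.046 with equal FPKM totals and -0.029 with median ratios, and that of Erap1 -0.0093 with median ratios, each shifted beyond the control SD. By construction these rescalings shift every gene, and the all-gene median went up by 0.037 and 0.053. With either rescaling, 1 of the 10 genes was below both controls in place of 2. Psmb10 changed sign when AAV-Ctrl 2 was left out. Of 60 medians of the other pathway lists under alternatives, 20 shifted by at least a yardstick taken from the controls. The yardstick is the size of the list's median AAV-Ctrl 2 minus AAV-Ctrl 1 difference, divided by the square root of 2. Opposite signs cancel in it, so it is not a per-gene SD. For the replaced catalytic subunits it was 0.020, smaller than the all-gene shift under either rescaling. The number of members higher by at least 1 was 0, ranged from 0 to 1 when either control was left out and was 2 at a threshold of 0.5. Over all genes, 28 were higher and 212 lower. The higher genes became 46 with a pseudocount of 0.01, 143 at a threshold of 0.5, 5 at a threshold of 2 and 40 to 49 when either control was left out. The lower genes became 396 and 425 with pseudocounts of 0.1 and 0.01, 640 at 0.5, 39 at 2 and 93 where FPKM had to average 5 or more. A smaller pseudocount by construction widens the differences of low genes. No paired analysis was possible because, among the libraries used, only 1 replicate number occurs in both groups.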

Other observations

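Genes of the type I interferon response were higher in the same order of libraries. Of 8 listed genes, 7 averaged at least 1 FPKM, and all 7 were lowest in AAV-Ctrl 1, intermediate in AAV-Ctrl 2 and highest in AAV-IL-27, against 16.2% of all genes tested, with a median log2 difference of 0.63. Ifit3, an antiviral effector, was at 14.44, 30.02 and 59.54 FPKM, so that the AAV-Ctrl libraries were 1.01 apart and AAV-IL-27 stood 0.96 above the nearer one. Isg15, a ubiquitin-like modifier, was at 27.79, 43.44 and 54.51 FPKM, with the controls 0.63 apart. Usp18, which removes ISG15 from proteins, was at 7.0, 11.13 and 16.95 FPKM. The AAV-Ctrl libraries were at least 0.5 apart in this direction for these 3 of the 7 genes, against 1.02% of all genes. For 2 of the 7, Ifit1 and Rsad2, AAV-IL-27 stood further above the nearer control than the controls stood apart, against 25% of all genes. FPKM was 9.02, 12.53 and 23.42 for Ifit1 and 35.71, 38.88 and 49.15 for Rsad2. Ifit1, Ifit3 and Usp18 stood at least 0.5 above both controls (3 of 7, against 1.57% of all genes). Oas1a had the smallest log2 difference of the 7, 0.31. The difference between the controls in the 10 peptide loading and immunoproteasome genes is thus accompanied by one in this list, and its part in the comparison with AAV-IL-27 was not tested.

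The genes whose profile over the 3 libraries was nearest to the mean profile of the 10 genes were Stat4, Lsm1, Galt, Ascl2 and Ptpn18, at distances from 0.0019 to 0.017 in centred log2(FPKM + 1). With 3 libraries this likeness is loose, since 387 genes lay within 0.1. Stat4, a transcription factor of IL-12 signalling, was at 23.06, 26.19 and 29.06 FPKM.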
